A study of Mus musculus with 3 samples.

Results

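Heat shock proteins, chaperonins and folding factors were followed in the neural retina of Rp1 knockout mice. The members were the genes whose array annotation gave exactly 1 symbol starting with Hspa, Hspb, Hspd, Hspe, Hsph, Hsp90, Dnaj or Fkbp, or a numbered Cct or Bag symbol, or 1 of Ppia to Ppih. The rule found 76 genes among the 8251 with a probe set of their own, measured by 105 probe sets. A gene with several probe sets was represented by a probe set with a plain suffix where there was one, and among these by the one with the highest mean. The choice used gene names and no difference between samples. Hspb11 and Hspbp1 came in by their spelling alone: Hspb11 is the intraflagellar transport protein IFT25, and Hspbp1 is an exchange factor of Hsp70, so neither is a small heat shock protein.

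The study measured total RNA on 3 one-colour Affymetrix U74Av2 arrays, 1 array for each pool of neural retinas from 3 to 4 mice. All pools came from Rp1-/- animals with mixed 129/SvEv and C57BL/6 ancestry, at postnatal day 21, with the tissue collected from 1 to 2 pm. The Rp1 protein binds microtubules in the outer segments of photoreceptors. The 3 samples form 1 group, and no wild-type samples were analysed here, so nothing below is a comparison of knockout with control and no test was made. Rp1 itself was not analysed here, the spread given is that between pools, and replicate numbers 1 to 3 only name the pools.

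Chaperones hold unfolded proteins and help them reach or keep their folded state. Hsp70 proteins bind short exposed stretches in a cycle driven by ATP, which J proteins start and exchange factors such as the Hsp110 and BAG proteins end. Hsp90 works later on nearly folded clients with helpers that include large FKBPs and cyclophilins, and the ring-shaped chaperonin CCT encloses actin, tubulin and beta-propeller proteins. Photoreceptors make large amounts of rhodopsin and transducin, and CCT with its partners of the phosducin family assembles the transducin beta-gamma dimer.

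Signals are linear intensities scaled to a common trimmed mean, and levels are compared between samples within a probe set. Signals of different genes are combined in the groups by mean level, the sums of marker lists and the correlations across genes. A signal counted as above background when it exceeded the 95th percentile of 19 controls, probe sets for transcripts of bacteria and yeast. This limit was 160.3, 80.7 and 107.1 in replicates 1, 2 and 3. Of the 76 members, 60 (78.9%) were above background on all 3 arrays, 13 on 1 or 2 arrays and 3 on none. The share among all 8251 genes was 60.7%. A fold written as "at least" sets the highest signal against the limit of the lowest array where that array was below it.

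The arrays did not carry the same spread of values, and this touched the members. Median signals over all probe sets that are not controls were 295.7, 216.4 and 249.8 in replicates 1, 2 and 3. In what follows a deviation is the log2 signal of 1 sample minus the mean of the other 2, so the 3 deviations of a gene cancel out. Among the 5006 genes above background on all arrays, those in the lowest of 4 groups of equal size by mean level had a median deviation of 0.50 in replicate 1 and those in the highest group -0.26. The 10 members in the lowest group followed with 0.90 and the 20 in the highest with -0.12. In replicate 2 the lowest group gave -0.38 for all genes and -0.84 for members, and the highest gave 0.29 and 0.43. Replicate 3 showed no such slope over all genes, with -0.12 in the lowest group and 0.01 in the highest. The members there gave 0.10, -0.43, -0.03 and -0.21 from the lowest to the highest group. Of the 60 members 24, 21 and 15 had their highest signal in replicates 1, 2 and 3, against 42.6%, 33% and 24.4% of all genes. These pools held the lowest signal of 24, 13 and 23 members, against 36%, 32.4% and 31.6%. The median SD over the 3 pools on the log2 scale was 0.36 for the 60 members and 0.36 for all genes. Over the 60 members, the Pearson correlation of log2 signals was 0.94 between replicates 2 and 3, 0.87 between 1 and 2 and 0.84 between 1 and 3, as a description across genes that share the same arrays.

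**Figure D1:**
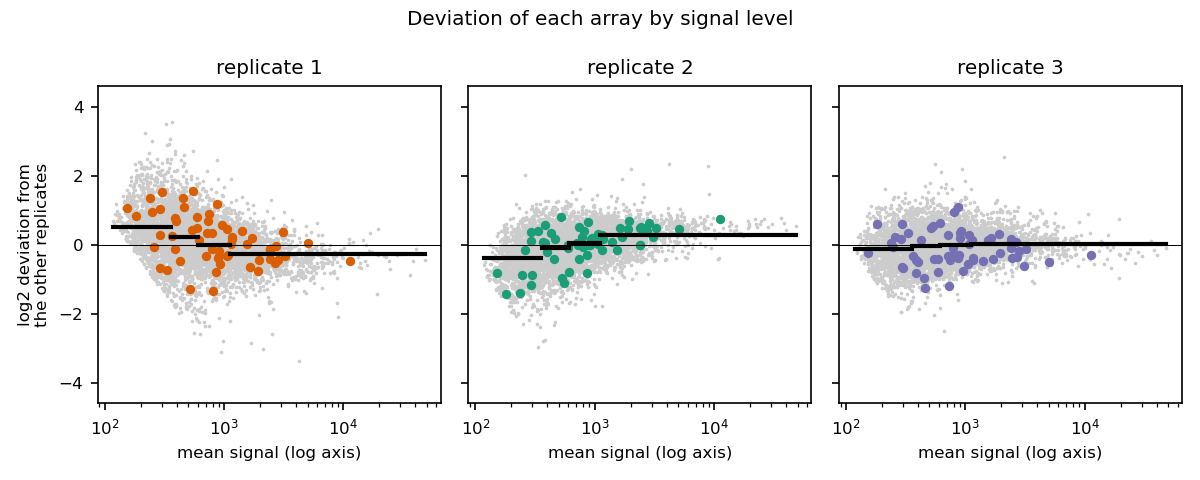
Deviation of each array from the mean of the other replicates (log2, vertical axis) against the mean signal of the gene (log axis), for the 5006 genes that passed the limit on every array. Coloured points are the 60 members, grey points the other genes, and black bars the median of all genes in each level group. The bars slope down in replicate 1 and up in replicate 2.

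Of 8 Hsp70 genes, 6 were above background on all arrays, stress-inducible and constitutive ones among them, and these 6 were lowest in replicate 3. Hspa8, the constitutive cytosolic Hsc70, gave 5138, 6258 and 4020 in replicates 1, 2 and 3. Hspa1a, a stress-inducible Hsp70, gave 1298, 1122 and 813. For its neighbour and near-copy Hspa1b the signals were 746, 568 and 494. Hspa1a and Hspa1b were thus both highest in replicate 1 and lowest in replicate 3, but their transcripts are so alike that their probe sets may share signal. Hspa5, which encodes BiP of the endoplasmic reticulum, gave 2313, 3099 and 2038. Hspa9, the mitochondrial mortalin, gave 1255, 1317 and 941, and the ribosome-associated Hspa14 gave 409, 378 and 314. The ranges of these 6 genes were narrow, from 1.30-fold to 1.60-fold. All 6 had their lowest signal in replicate 3, where 31.6% of all genes had theirs, and the median deviation there was -0.43 against -0.04 for all genes. With arrays scaled to a common median 5 of the 6 were lowest in replicate 3, and after quantile normalization 6 were. The highest sample was less settled: 3 of the 6 were highest in replicate 1 as measured, where 42.6% of all genes were. None were under median scaling, which took the median deviation of all genes in replicate 1 to -0.28, and 4 were after quantile normalization.

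The other 2 Hsp70 genes, known for their use in testis, stood near the limit. Hspa2 gave 30.1, 135 and 133, below background in replicate 1, and Hspa1l gave 59.0, 45.5 and 114, above it in replicate 3 alone and there at least 1.41-fold higher than in replicate 2. For Hspa2 no fold between the pools could be bounded.

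Hsp110 proteins, the large relatives of Hsp70 that act as its exchange factors, were all above background. Hspa4l was 1562, 1427 and 1646, a 1.15-fold range. Hsph1, the heat-inducible member, was 771, 895 and 1046, and Hspa4 was 2064, 3289 and 2753. In replicate 3, where the Hsp70 genes were low, these genes deviated by 0.14 for Hspa4l, 0.33 for Hsph1 and 0.08 for Hspa4. Both further probe sets of Hspa4 above background on all arrays were highest in replicate 1 and lowest in replicate 3, at 528, 359 and 276 and at 329, 169 and 132, so the order of its pools depends on the probe set.

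Hsp90 was represented by its inducible cytosolic form and by Grp94 of the endoplasmic reticulum. Hsp90aa1 gave 9103, 16049 and 9885, a 1.76-fold range with the peak in replicate 2. Hsp90b1, the gene of Grp94, gave 3680, 3461 and 2345. After quantile normalization Hsp90aa1 narrowed to 11229, 12468 and 10256 while Hsp90b1 widened to 4630, 3050 and 2282, so the width of these ranges differs with the scaling.

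The mitochondrial chaperonin Hsp60 and its lid Hsp10 are encoded side by side and were both lowest in replicate 1 and highest in replicate 2. Hspd1 (Hsp60) gave 1209, 2035 and 1778. Hspe1 (Hsp10) gave 742, 1205 and 773. They parted in replicate 3, where Hspd1 deviated by 0.18 and Hspe1 by -0.29. A further probe set of Hspd1 was 109, 174 and 397, below background in replicate 1 and highest in replicate 3.

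All 8 members that encode subunits of the chaperonin CCT were above background on every array. The remaining measured subunit gene, Tcp1, has another symbol and is given with the partners of CCT. Cct2 gave 848, 375 and 290. Cct8 gave 1245, 1042 and 673, Cct7 gave 1679, 1450 and 1135, and Cct3 gave 1296, 1264 and 974. These 4 genes were highest in replicate 1 and lowest in replicate 3. Cct6a had the same order in a narrower range, at 925, 774 and 700. Cct4 and Cct5 differed, with 1576, 2664 and 1738 for Cct4 and 2767, 4030 and 3049 for Cct5, both highest in replicate 2 and lowest in replicate 1. Cct6b, a subunit known from testis, gave 447, 125 and 242, the widest range among the subunits at 3.57-fold. Of the 8 genes 6 were highest in replicate 1 and 2 in replicate 2, against 42.6% and 33% of all genes. Under median scaling 2 were highest in replicate 1 and 6 in replicate 2. That scaling moved the median deviation of all genes from 0.06 to -0.28 in replicate 1 and from -0.01 to 0.32 in replicate 2. Further probe sets ordered the pools otherwise for Cct3, at 1142, 1969 and 1546 for one and 865, 535 and 665 for another, and for Cct5, at 355, 330 and 351. Against the mean of the other pools 7 of 8 were lower in replicate 3, with a median deviation of -0.33, against -0.04 for all genes, of which 2686 of 5006 were lower. That count was 7 under median scaling and 8 after quantile normalization. In replicate 1 the median CCT deviation was 0.36 against 0.06 for all genes. Under median scaling it was 0.01 against -0.28, and after quantile normalization 0.45 against -0.001.

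**Figure D2:**
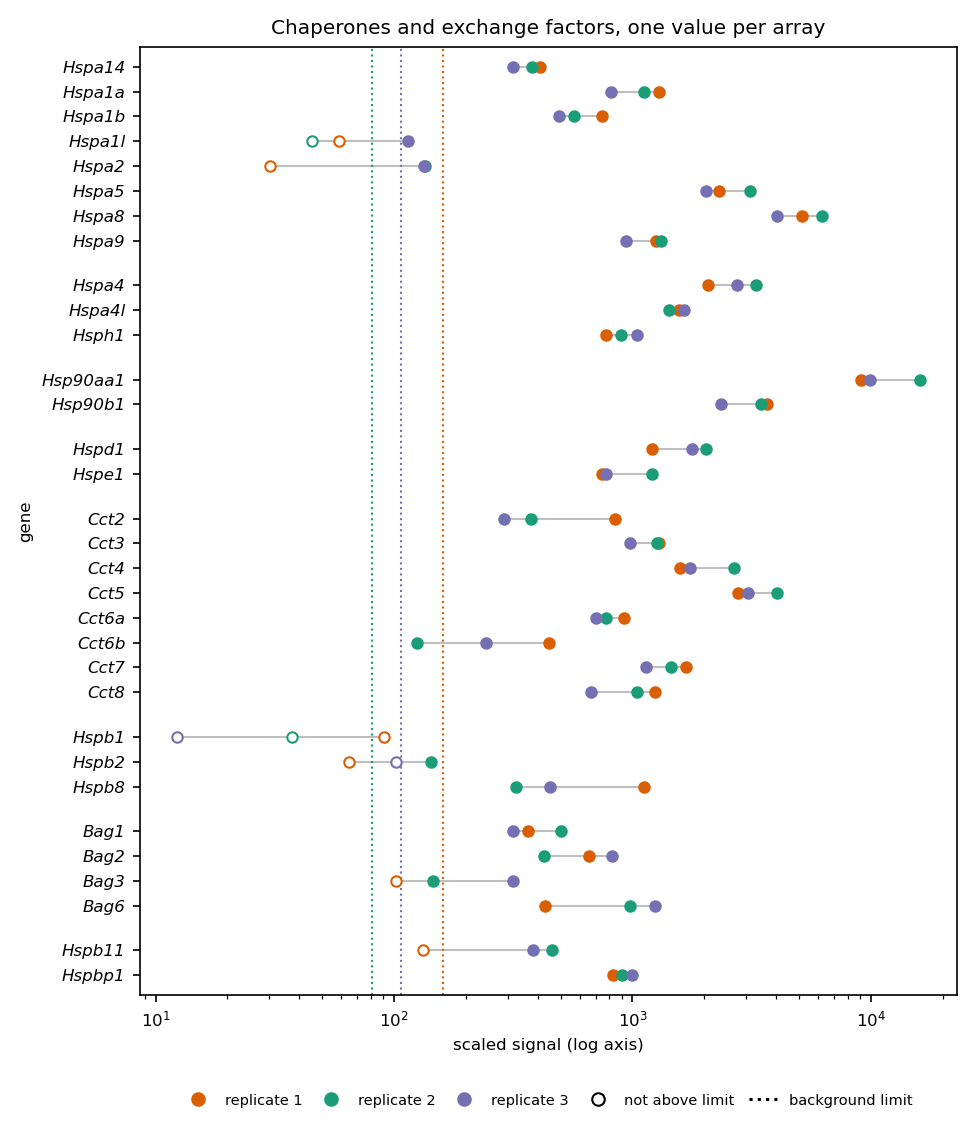
Scaled signal (log axis) of the chaperone and exchange factor genes, with 1 point per array and a grey line over the range. Open points are not above the background limit of their array, which the dotted lines show. The 6 Hsp70 genes above background on all arrays have their lowest point in replicate 3, while Cct2, Cct6b and Hspb8 span the widest ranges among the genes detected on all arrays.

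Among the small heat shock proteins, which hold unfolding proteins without ATP, detection varied. Hspb8 (Hsp22) gave 1118, 326 and 450, a 3.43-fold range with the peak in replicate 1. A further Hspb8 probe set was below background on all arrays, at 44.0, 11.7 and 12.2. Hspb1 (Hsp25), a stress-inducible member, was below background on all arrays, at 90.5, 37.2 and 12.3. The muscle-associated Hspb2 was above background in replicate 2 alone at 64.7, 142 and 102, but a second probe set gave 433, 994 and 852, above it on all arrays and again lowest in replicate 1. The alpha-crystallins belong to the same protein family under other names. Cryab was 339, 19.3 and 36.6, above background in replicate 1 alone, and Cryaa was 39574, 62140 and 46061. Of the 8 lens markers, all above background, Bfsp1, Gja3 and Crygd were highest in replicate 1 and the other 5 in replicate 2. Of 5 endothelial markers, 3 were above background on all arrays and each of these was highest in replicate 1. The part of these cell types in the Hspb8 and Cryab signals was not tested.

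BAG proteins release clients from Hsp70. Bag1 gave 366, 500 and 315, and Bag2 gave 654, 427 and 823. A further Bag2 probe set above background on all arrays had the same order at 1074, 1013 and 1192. Bag6, which hands over membrane proteins and failed products, gave 430, 973 and 1245, a 2.90-fold range with its low in replicate 1. The other 3 probe sets of Bag6 did not have that low: they gave 1744, 1109 and 1800, then 909, 554 and 638, then 315, 255 and 373, all lowest in replicate 2. Bag3, the stress-inducible partner of Hspb8, gave 102, 146 and 316, with only the first of these below background, and replicate 3 exceeded replicate 1 by at least 1.97-fold. Another Bag3 probe set was highest in replicate 1 instead, with 270 there and 58.0 and 69.6 below background in the others. Of the 2 genes included by spelling, Hspbp1 gave 830, 907 and 999, and Hspb11 was below background at 132 in replicate 1 and 460 and 381 in the others, at least 2.87-fold higher in replicate 2.

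**Figure D3:**
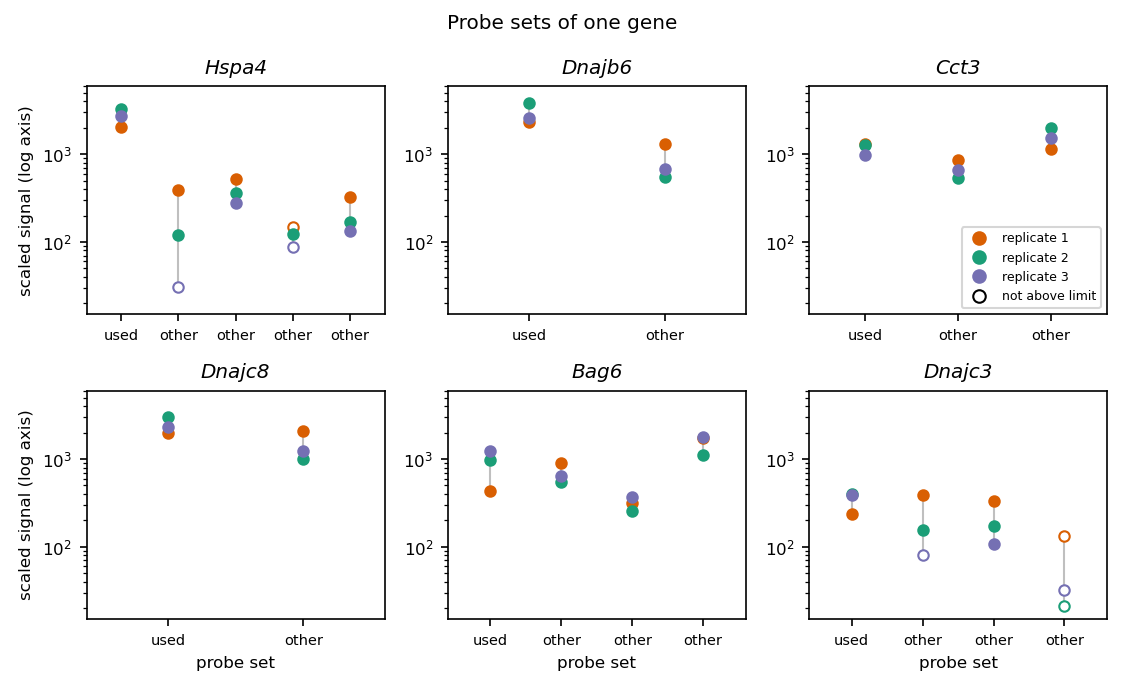
Scaled signal (log axis) of every probe set of 6 genes with several probe sets, 1 point per array. The probe set used comes first, and open points are not above the background limit. In Hspa4, Dnajb6, Dnajc8 and Dnajc3 the probe set used is lowest in replicate 1 while every other probe set above background on all arrays is highest there.

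Several probe sets of a gene often ordered the pools differently. Among 20 members with more than 1 probe set, 14 had probe sets that peaked in different samples. Restricting this to probe sets above background on all arrays left 11 genes, and 8 of them still disagreed: Bag6, Cct3, Cct5, Dnajb6, Dnajc3, Dnajc8, Fkbp4 and Hspa4. Neither count was made over all genes, so neither sets the members apart from them. For Dnajb6, a suppressor of protein aggregation, the probe set used gave 2310, 3790 and 2609 and the other 1326, 557 and 671. Dnajc8, a J protein of the spliceosome, gave 1993, 3009 and 2303 at one and 2094, 1010 and 1226 at the other. The single probe sets of Hsp90aa1 and Cct6a that were not used were above background in replicate 1 alone, at 429, 28.9 and 31.1 for Hsp90aa1 and 425, 32.8 and 24.1 for Cct6a. Of the 16 member probe sets that were not used but were above background on all arrays, 11 were highest in replicate 1, and of the 60 used 24 were, against 42.6% of all genes. These counts are not matched by level.

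J proteins, which bring clients to Hsp70 and start its ATP cycle, formed the largest class, with 23 of 27 above background on all arrays. Dnaja1, a main partner of Hsc70, had the narrowest range of the 60 members, at 2274, 2408 and 2542, a 1.12-fold range. Dnaja3, its mitochondrial relative, gave 1149, 1072 and 1221, a 1.14-fold range. Dnajb1, the classical heat-inducible Hsp40, gave 284, 754 and 645, a 2.65-fold range with the low in replicate 1. Dnajb2, a neuronal J protein, was high in replicates 1 and 2 at 1010 and 934, and low in replicate 3 at 420. Dnajc5, the cysteine string protein of synaptic vesicles, gave 1495, 594 and 728, with its peak in replicate 1.

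Of the 23 J proteins 11 had a log2 range of 1 or more, against 28.3% of all genes above background. After quantile normalization 8 did, against 25.5% of all genes, and under median scaling 9, against 34.2%. Except for Dnajb2 and Dnajc5, the 11 genes lay in the lowest or the next level group, where 47.4% and 30.8% of all genes had such a range. The median SD of the 23 was 0.51, against 0.36 for all genes. Dnajc2 of the ribosome had the widest range among the J proteins detected on all arrays, at 607, 200 and 219. Dnajb11, a partner of BiP, was 767, 496 and 257, Dnajb3 of the testis was 266, 94.1 and 238 (61.3, 65.2 and 92.2, below background, at a second probe set), and Dnajc21 of ribosome assembly was 465, 168 and 312. Of the other members of this class above that range, Dnajc1, Dnajb4 and Dnajc4 were highest in replicate 1. Dnajb13, a gene known from sperm flagella, gave 651, 342 and 693, and another probe set of it gave 180, 112 and 101, below background in replicate 3. The J proteins with narrower ranges not described here, Dnaja2, Dnajb9, Dnajc7, Dnajc9, Dnajc10, Dnajc15 and Dnajc17, ranged from 1.20-fold for Dnajc17 to 1.85-fold for Dnajc7. In all, 12, 5 and 6 of the 23 J proteins were highest in replicates 1, 2 and 3, against 42.6%, 33% and 24.4% of all genes, and under median scaling 9, 11 and 3. Their median deviation in replicate 1 was 0.42 against 0.06 for all genes. Under median scaling it was 0.07 against -0.28, and after quantile normalization it was 0.26.

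J proteins below background on at least 1 array were Dnajb5 at 88.7, 37.0 and 31.2, on all arrays, and 3 further genes. Dnajc13, which acts on endosomes, was below background in replicate 1 at 78.3 and gave 389 and 385 in the others, so that replicate 2 exceeded it by at least 2.43-fold. Dnajc11 of the mitochondrial inner membrane organising system was 75.8, 268 and 79.4, above background in replicate 2 alone. Dnajb8, known from testis, was 57.6, 75.8 and 207, above it in replicate 3 alone. The probe sets of Dnajc1 and Dnajc3 not used peaked in other samples than the ones used: for Dnajc1 the other gave 74.1, 107 and 111, and for Dnajc3 the one used gave 236, 400 and 391 and another above background on all arrays 329, 174 and 108.

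**Figure D4:**
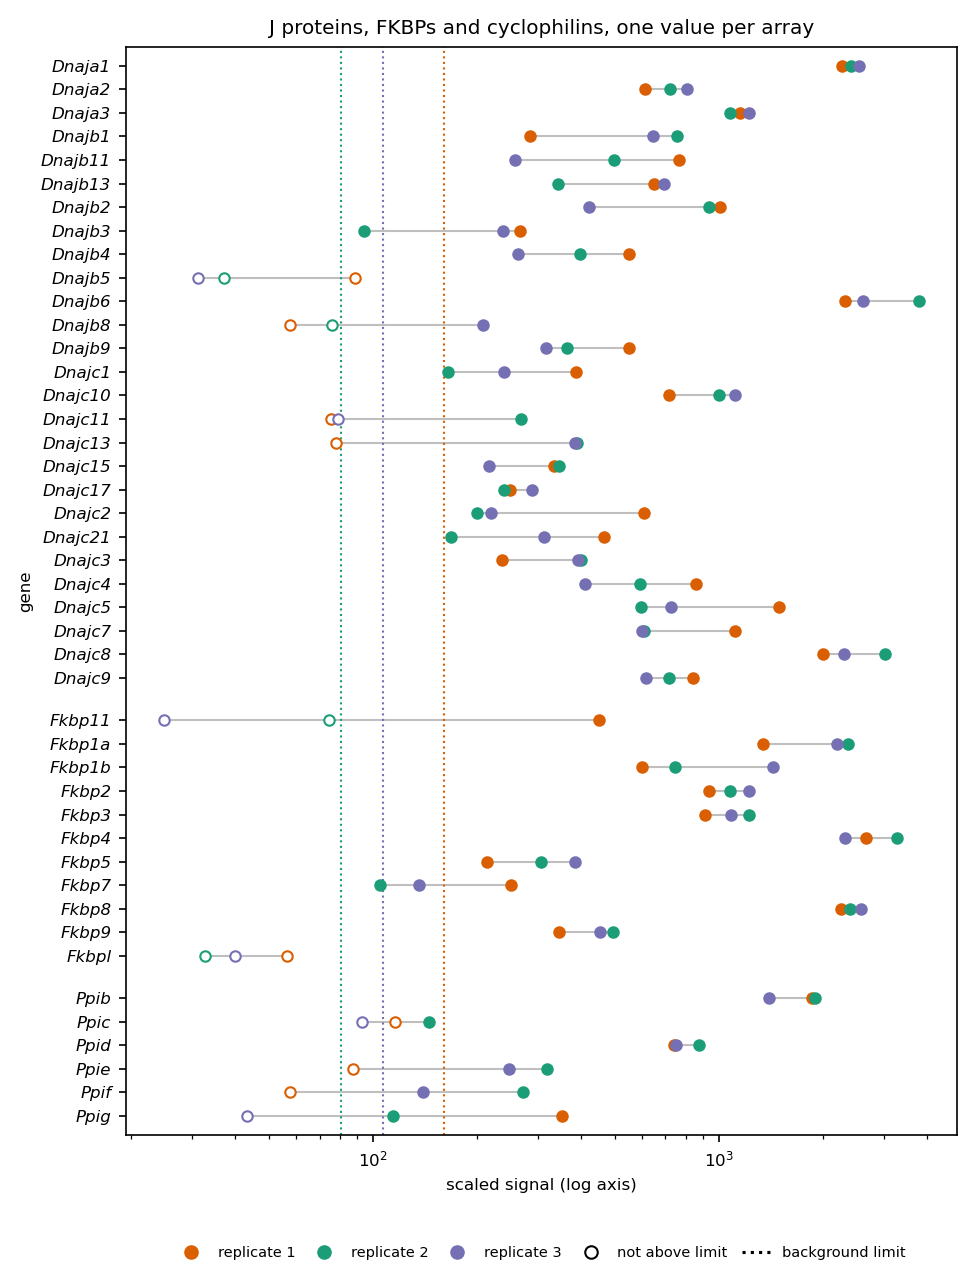
Scaled signal (log axis) of the J protein, FKBP and cyclophilin genes, with 1 point per array and a grey line over the range. Open points are not above the background limit of their array, shown dotted. Dnaja1, Dnaja3 and Fkbp8 lie within 1.15-fold over the 3 pools, while Fkbp11 is above background in replicate 1 alone.

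FKBPs are proline isomerases that also bind the drug FK506, and 9 of 11 were above background on all arrays. Fkbp8, which anchors Bcl2 proteins at mitochondria, was steady at 2248, 2389 and 2579. Fkbp1a, the founding member FKBP12, gave 1339, 2357 and 2195. Fkbp1b, which binds ryanodine receptors, gave 600, 746 and 1433, a 2.39-fold range with its peak in replicate 3. Both were lowest in replicate 1. The Hsp90 partners of steroid receptors were Fkbp4 at 2666, 3272 and 2310 and Fkbp5, a glucocorticoid target, at 213, 305 and 383. A further Fkbp4 probe set was highest in replicate 1, at 1290, 1043 and 1142. In the endoplasmic reticulum, Fkbp2 gave 938, 1079 and 1219, Fkbp9 gave 344, 495 and 454 and Fkbp7 gave 250, 105 and 136. Fkbp11, a secretory-pathway member, was 451 in replicate 1 and below background at 74.6 and 24.8 in the others, so that replicate 1 exceeded replicate 3 by at least 4.21-fold. Fkbpl was below background on all arrays, with signals from 32.6 to 56.2. Fkbp3 of the nucleus gave 913, 1224 and 1081. In this class 7 of the 9 detected FKBPs, the exceptions being Fkbp4 and Fkbp7, had their lowest signal in replicate 1, where 36.0% of all genes had theirs. The median deviation there was -0.33 against 0.06 for all genes, and under median scaling it was -0.68 against -0.28, and after quantile normalization the FKBP median was -0.34, with 6 of 9 lowest there. The difference from the other classes was not tested.

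Cyclophilins, the proline isomerases that bind cyclosporin, were detected less evenly, with 2 of 6 above background on all arrays. Ppib of the endoplasmic reticulum gave 1851, 1891 and 1392, and the Hsp90 partner Ppid gave 741, 874 and 753. Ppie of the spliceosome was below background in replicate 1 at 87.7, and 318 and 246 in the others. Ppif, the mitochondrial cyclophilin D of the permeability transition pore, was likewise below it in replicate 1 at 57.6, and 271 and 139 in the others. Those lows in replicate 1 allow a fold of at least 1.98 for Ppie and 1.69 for Ppif in replicate 2. Ppig, a nuclear cyclophilin, went the other way with 350, 114 and 43.3, below background in replicate 3 and at least 3.27-fold higher in replicate 1. Ppic was above background in replicate 2 alone, at 116, 145 and 92.9.

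**Figure D5:**
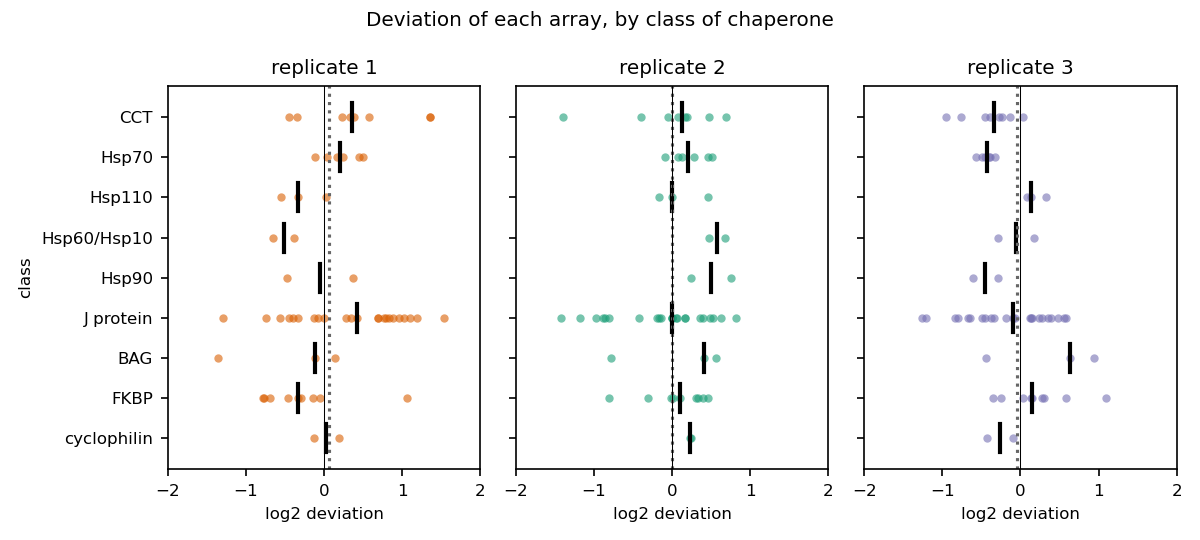
Log2 deviation of each array from the mean of the other replicates for the members above background on all arrays, by class. Each point is a gene, black bars are class medians, and the dotted line is the median of all 5006 genes. Small heat shock proteins and the genes included by spelling are not drawn, as each had 1 such gene. Hsp70 genes lie left of 0 in replicate 3, and 8 of 9 FKBPs lie left of 0 in replicate 1.

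Over all classes, 17 of the 60 members (28.3%) had a log2 range of 1 or more, the same share as the 28.3% of all genes. Of these 17, 13 were highest in replicate 1 (76.5%), as were 829 of the 1418 genes with such a range (58.5%), which are 16.6% of all genes above background. Bag6, Fkbp1b and Dnajb1 were lowest in replicate 1, as were 32.4% of the genes with such a range (9.19% of all genes), and Dnajb13 was lowest in replicate 2. By level the wide ranges sat at the lower levels, with 6 of 10 members in the lowest level group, 7 of 12 in the next, 4 of 18 in the one above it and 0 of 20 in the highest. Shares for all genes were 47.4%, 30.8%, 20.9% and 14.1%.

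Promoters show which members carry the binding sequence of the heat shock factors or that of the ER stress response, the main inducible programmes of chaperone genes. RefSeq windows of assembly GRCm38.p6, which run from 250 bases before a transcript start to 50 after it, were matched by symbol for 65 of the 76 members. The heat shock element was searched on both strands as 3 alternating units, GAA, TTC and GAA, with 2 bases of any kind between neighbours. It was present in the windows of 4 of 65 members (6.15%), against 37 of the 6576 array genes with a window (0.563%) and 0.603% of all 32851 windows. The genes were Hspd1, Hspe1, Dnajb6 and Hsph1, the last with its match after the start and therefore not printed. The ER stress response element, CCAAT, then 9 bases of any kind, then CCACG on either strand, was present for 3 of 65 members (4.62%), against 0.182% of array genes and 0.119% of all windows, and these were Hspa5, Hsp90b1 and Dnajc3. The shorter pair of units GAANNTTC, which the 3-unit element contains, was in the windows of 12 members (18.5%), among them Hspa1a and Hspa1b, against 7.25% of array genes and 7.86% of all windows. The pair TTCNNGAA, also contained in it, was in those of 9 members (13.8%), against 8.61% of array genes and 8.52% of all windows. A match describes letters in a window and does not show that a factor binds there.

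The following stretches, written 5′ to 3′ on the strand of the gene, are shown because they carry these elements in members whose signals are given above, with the matched letters in capitals. Coordinates are those of the whole printed stretch, flanking bases included. The element of Hspe1 and Hspd1 consists of 2 overlapping matches on chromosome 1, within chr1:55088053-55088082 on the plus strand. It lies between the Hspe1 start and an Hspd1 start 216 bases before it, and these face away from each other. Another Hspd1 start lies 95 bases past the Hspe1 start. That of Dnajb6 is within chr5:29735822-29735894, plus strand. The pair of units before Hspa1a is within chr17:34972223-34972290 and that before Hspa1b within chr17:34959305-34959372, both on the minus strand.
Hspe1: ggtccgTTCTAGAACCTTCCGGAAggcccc
Dnajb6: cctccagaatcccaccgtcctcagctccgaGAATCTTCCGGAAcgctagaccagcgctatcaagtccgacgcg
Hspa1a: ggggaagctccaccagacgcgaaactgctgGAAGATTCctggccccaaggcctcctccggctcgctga
Hspa1b: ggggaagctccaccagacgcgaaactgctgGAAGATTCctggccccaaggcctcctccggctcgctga
The stretches of Hspa1a and Hspa1b have the same letters, and over the 250 bases before each start 247 (98.8%) were identical without gaps.

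The ER stress response elements follow in the same way. Those of Hspa5, within chr2:34771995-34772073, and Dnajc3, within chr14:118937797-118937875, are on the plus strand. The Hsp90b1 stretch at chr10:86705503-86705686 is on the minus strand and holds 2 matches, 1 in each direction.
Hspa5: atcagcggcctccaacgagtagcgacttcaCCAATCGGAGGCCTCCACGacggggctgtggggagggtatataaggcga
Dnajc3: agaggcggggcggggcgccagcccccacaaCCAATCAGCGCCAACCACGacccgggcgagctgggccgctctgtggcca
Hsp90b1: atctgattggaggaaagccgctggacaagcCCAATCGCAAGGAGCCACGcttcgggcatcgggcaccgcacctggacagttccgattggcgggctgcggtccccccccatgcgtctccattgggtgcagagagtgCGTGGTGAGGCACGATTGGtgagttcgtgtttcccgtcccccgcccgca

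The 4 members with the 3-unit heat shock element all had their lowest signal in replicate 1, with deviations of -0.65 for Hspd1, -0.38 for Hspe1, -0.45 for Dnajb6 and -0.33 for Hsph1. Hspd1 and Hspe1 share their element. Hspd1 and Dnajb6 lay in the highest level group and Hspe1 and Hsph1 in the one below it. The median deviation of all genes there was -0.26 and -0.02 in replicate 1, and no share matched by level was taken. Of the 25 genes with that element above background on all arrays, members included, 13 were lowest in replicate 1 (52.0%), against 36.0% of all genes. Of the genes with the pair GAANNTTC 98 of 275 (35.6%) were lowest there, and of those with TTCNNGAA 124 of 336 (36.9%). After quantile normalization Dnajb6 was lowest in replicate 3 instead, and the other probe set of Dnajb6 was highest in replicate 1. The 3 genes with the ER element did not share an order: Hspa5 and Hsp90b1 were lowest in replicate 3, and Dnajc3 in replicate 1.

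Taken by compartment, 13 members act in the endoplasmic reticulum, 11 of them above background on all arrays, and 7 act in mitochondria, 5 of them above. In replicate 3 the median deviation was -0.25 for the 11 reticulum genes, -0.29 for the 5 mitochondrial genes and -0.24 for the 35 cytosolic genes, against -0.04 for all genes. A further 12 members were placed in other compartments, and the 9 of them above background did not share this, with a median of 0.03. A log2 range of 1 or more was found for 3 of 11 reticulum, 0 of 5 mitochondrial and 10 of 35 cytosolic genes, against 28.3% of all genes. In the other compartments it was found for 4 of 9.

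Other genes of protein folding that are not members are set against all genes, of which 53.7% deviated downwards in replicate 3 with a median of -0.04. Of 13 co-chaperones of Hsp70 and Hsp90 10 were above background on all arrays, and 9 of those 10 deviated downwards in replicate 3, with a median of -0.18 against -0.04 for all genes. Stip1, which links Hsp70 to Hsp90, gave 674, 742 and 535. Cdc37, the kinase adaptor of Hsp90, gave 1591, 1324 and 1272, and the ubiquitin ligase Stub1 gave 1104, 1418 and 1179. Sugt1 at 612, 1401 and 821 and Tomm34 at 219, 809 and 1336 had a log2 range of 1 or more.

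Partners of CCT had 11 of 12 genes above background, of which 9 deviated downwards in replicate 3, with a median of -0.34, against 53.7% of all genes. Among the prefoldin subunits, which deliver clients to CCT, Pfdn2 was 955, 933 and 448 and Pfdn5 was 283, 168 and 276, while Pfdn1 was below background on all arrays. Phosducin, whose gene Pdc is a photoreceptor relative of the CCT partner in transducin assembly, gave 18902, 30822 and 17976. Tcp1, the CCT subunit outside the naming rule, gave 417, 494 and 359, and the tubulin cofactor Tbca gave 1229, 791 and 595. Pfdn2 and Tbca had a log2 range of 1 or more.

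In the list of other folding enzymes and stress genes of the endoplasmic reticulum 15 of 21 were above background, with a median deviation of -0.19 in replicate 3 and 11 of 15 lower, against 53.7% of all genes. P4hb was below background in replicate 1, at 32.3, 109 and 186, Pdia3 gave 638, 347 and 276, and Pdia4 gave 564, 714 and 611. The stress transcription factors Ddit3 and Atf3 were highest in replicate 1, with 893, 552 and 354 for Ddit3 and 1140, 229 and 180 for Atf3, and with Pdia3 they were the 3 of those 15 genes with a log2 range of 1 or more. Mitochondrial import and quality control genes were above background for 8 of 10, with a median deviation of -0.07 in replicate 3. Grpel1 gave 327, 217 and 247, Grpel2 gave 211, 344 and 392 and Timm44 gave 548, 1313 and 832. Timm44, Yme1l1 (172, 309 and 366) and Htra2 (609, 324 and 260) had a log2 range of 1 or more. Of the heat shock factor list, the factor-binding Hsbp1 gave 1128, 2047 and 1141, Hsf4 of the lens was 203, 173 and 37.0, below background in replicate 3, and Hsf2 was below it on all arrays.

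Markers of the cells in the pools moved as well. All 7 rod markers were above background, with Gnat1 at 30806, 51740 and 35647. All 7 deviated downwards in replicate 3 with a median of -0.30, as did 53.7% of all genes, whose median was -0.04. Prph2 (4470, 1941 and 1690) and Nrl (1468, 496 and 706) were highest in replicate 1, and the other 5 in replicate 2. The summed rod signal was 100339, 144889 and 98428 in replicates 1, 2 and 3. All 8 inner neuron markers were above background, with sums of 14363, 13984 and 13079. Of these 8, 5 were highest in replicate 1, while Pcp2, Trpm1 and Slc6a9 were highest in replicate 3. All 6 Müller glia markers were above background too, with sums of 12448, 19732 and 17126. The Müller sums without Clu were 8766, 10400.4 and 8757, and Glul and Vim were highest in replicate 1. Sums of lens markers were 129765, 190000 and 134304. Pigment cell markers, 2 of 5 above background on all arrays, summed to 1422, 12026 and 7835, and blood markers, 2 of 4, to 5490, 31716 and 8254. For stroma and smooth muscle, 5 of 8 above background, the sums were 2361, 3899 and 4435. Of these genes, Dcn (23.1, 602 and 648) and Acta2 (55.5, 722 and 734) were below background in replicate 1. Fbln1, Lum and Col1a1 were like them highest in replicate 3, Myh11 in replicate 2, and Col3a1 and Tagln in replicate 1. For skeletal muscle, 2 of 8, the sums were 2374, 2381 and 3157 (1120, 860 and 818 without Pvalb, which carries the high replicate 3). For immune cells, 2 of 5, they were 1307, 1036 and 1291, and for endothelium 2286, 1333 and 1709. In these pooled tissues fewer cells of a type and less RNA per cell cannot be told apart, and the part of cell composition in the low replicate 3 of the Hsp70 and CCT genes was not tested.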

How the data were processed

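The authors deposited a table of probe set intensities on a linear scale for 3 arrays, each hybridised with RNA from a pool of retinas. The software and settings behind these intensities are not given in the sources used here. From the 12488 probe sets, controls were set aside, each array was scaled to the same 2% trimmed mean over the other 12422, values under the 5th percentile of the array were raised to it, and log2 was taken of these deposited intensities. Genes were named from the platform annotation given with the series: 10833 probe sets had 1 symbol, 396 several and 1193 none. Of those with several, 4 carried a symbol of these families and were not used. With 1 group no test was made, and precision is limited by the 3 arrays.

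Members and gene lists were chosen with earlier results of these data known. Genes given with values were all measured Hsp, Cct and Bag members. Of the J proteins, FKBPs and cyclophilins they were those below background on an array, the 4 widest and 2 narrowest, and those whose probe sets peaked in different samples. Of each list they were the first 3 measured and those with a log2 range of 1 or more. Values of Dnajb1, Dnajb2, Dnajc5, the remaining FKBPs, Ppib, Ppid, Pdc, Tcp1 and the marker genes were added after their values were seen. Promoter windows came from RefSeq (GRCm38.p6), and no window was used for the other 11 members. The calculation of ranges and deviations was run on simulated arrays with known changes. This concerned the calculation alone and did not test the data. Python 3.11.15, numpy 2.4.6, pandas 2.3.3, scipy 1.17.1 and matplotlib 3.10.9 were used.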

Additional observations from a re-analysis of the deposited data

How the results depend on the processing

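Background limits, scaling, floor, pseudocount, probe set choice and left-out arrays were varied. Between 57 and 74 members were above background on all arrays, with 74 when the median of the controls was the limit. The count of members with a log2 range of 1 or more was 17 of 60 as reported, against 28.3% of all genes. It was 29 of 74 with the median of the controls as limit, against 42.9% of all genes. At a threshold of 1.5 it was 7. With 1 array left out it was 4 without replicate 1, 11 without replicate 2 and 12 without replicate 3. Shares of all genes are not given beside these counts. Over all genes above background, the Pearson correlation was also highest between replicates 2 and 3, at 0.94 against 0.82 for the other pairs. A range over 2 arrays cannot exceed that over 3, and the set of genes above background can differ as well. The median deviation in replicate 3 was negative under every setting run, from -0.25 to -0.10. That in replicate 1 was 0.03 as reported but -0.32 with arrays scaled to a common median, where all genes gave -0.28, -0.02 with the median of the controls as limit, -0.03 without replicate 3, and 0.19 both after quantile normalization and with the mean of all probe sets. Common-median scaling moved the median log2 level over all 8251 genes by -0.22, 0.23 and 0.03 in replicates 1, 2 and 3, and quantile normalization by -0.20, 0.19 and 0.03. After quantile normalization 51 of 60 members had the same highest sample, 50 the same lowest, and 12 had a range of 1 or more in both. Of 1064 SDs of single members under alternatives, 8 moved by at least the SD reported. An SD that shrank could not reach this mark unless it vanished, and the background limits do not enter an SD. The count is therefore no measure of how stable the SDs are. No paired analysis was possible because there is 1 group. Signals below the limit have no order between arrays.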

Other observations

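Among the 29 member probe sets that were not used, 16 were above background on all arrays and 11 of these were highest in replicate 1 (68.8%). For all probe sets with 1 symbol and above background on all arrays, the share was 43.2% with a plain suffix and 42.9% with another suffix. These shares are not matched by level. Of all genes, 63.6% in the lowest level group and 19.0% in the highest were highest in replicate 1.

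Several members are known chiefly from testis or sperm. Of these, Cct6b, Dnajb3 and Dnajb13 were above background on all arrays, each with a log2 range of 1 or more. Cct6b and Dnajb3 lay in the lowest level group and Dnajb13 in the next, where 47.4% and 30.8% of all genes had such a range. A second probe set of Dnajb3 was below background on all arrays, and that of Dnajb13 was below it in replicate 3. Hspa2 was above background in replicates 2 and 3, and Hspa1l and Dnajb8 in replicate 3 alone.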
